A study of Homo sapiens with 18 samples.

Results

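The 42 genes described here encode the proteins that mark, license and fire DNA replication origins and that copy DNA at the replication fork. They were taken as a list of gene names, and all 42 were found by Ensembl gene identifier among the 58825 genes of both count tables. The rule is a list of names with no threshold on a measured value, although the list was drawn up with earlier results of these data known. Each was above the low-count filter of the tests at both times, and the lowest count of any of them in any library was 79.

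The measurements are poly-A RNA-Seq counts from OVCAR-3, an established cell line of high-grade serous ovarian carcinoma and the only cell line analysed here. Cells received DMSO, the vehicle, or 1 µM of i-BET858 or 1 µM of i-BET151, and RNA was taken after 4 h or after 24 h, with 3 libraries in each of the 6 groups. Cells grew in 12-well plates. All 6 groups were kept in stripped medium, the DMSO cells included. Both compounds are BET inhibitors, small molecules that occupy the acetyl-lysine pockets of the BET family of bromodomain proteins, and i-BET858 is described in the study as a bivalent inhibitor. The study calls the replicates of a group biological, without saying whether they were separate cultures, and the p-values measure the spread between these libraries.

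Replication starts where the origin recognition complex (ORC) sits on DNA and, with CDC6 and CDT1, loads the ring-shaped MCM helicase in G1 phase, a step called licensing. In S phase the kinase pair CDC7 and DBF4, with CDC45 and the GINS complex, turns the loaded ring into the active helicase, DNA polymerase α with primase lays down primers, and polymerases ε and δ extend them with the PCNA clamp, its RFC loader and the RPA single-strand binding complex. FEN1 and LIG1 join the Okazaki fragments of the lagging strand. Many of these genes are transcribed most strongly around the entry into S phase, so in RNA from bulk cells a smaller share of cells near S phase and less RNA per cell cannot be told apart.

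Libraries held between 27323969 and 46299994 counts (median 32267434). The replicate 3 libraries stood apart, with 17817 to 20642 genes detected against 23674 to 24947 in replicates 1 and 2, and the counts of changed members are therefore also given without replicate 3. HEXIM1 and CDKN1A, known to respond to BET inhibition, rose with both drugs at both times, and the epithelial and serous markers PAX8, WT1, MUC16 and EPCAM were present at 463, 123, 225 and 417 CPM (the count scaled for sequencing depth) in DMSO at 4 h. The summed level of 9 markers of stroma, leukocytes and endothelium lay between 23.0 and 55.8 CPM. In DMSO at 4 h the collagen gene COL1A1 made up most of it (28.9 ± 10.4 CPM, SD, n = 3), VWF, COL1A2, PDGFRB, PTPRC and PECAM1 were at means under 4 CPM, and COL3A1 and CD3E were at a mean of 0 CPM, as was CD68, most of whose exon bases are shared with another gene on the same strand. The sum of 9 epithelial and serous markers moved with treatment, and its part in the changes below was not tested. It lay between 8722 and 10084 CPM in DMSO at 4 h and between 11700 and 12179 CPM with i-BET858, and between 8800 and 10146 CPM in DMSO at 24 h and between 6869 and 7160 CPM with i-BET858, where the keratin genes KRT8, KRT18 and KRT7 fell and the E-cadherin gene CDH1 rose, from 223 to 483 CPM. KRT8 was the larger part of the sum, at 5619 CPM in DMSO at 24 h and 4119 CPM with i-BET858. With i-BET151 it lay between 9738 and 10298 CPM at 4 h and between 6852 and 7289 CPM at 24 h.

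In DMSO, the levels of the 42 genes per kilobase of exon spanned a wide range. MCM7 was the most abundant, with a mean of 87.1 CPM per kb and a range of 80.5 to 94.1 over the 6 DMSO libraries. FEN1 followed at 80.4 CPM per kb (72.0 to 89.3) and PCNA at 78.7 CPM per kb (70.3 to 84.2), and the ranges of these 3 genes overlapped. MCM2, at 46.5 CPM per kb (41.7 to 52.0), lay below them without overlap. The lowest were POLA2, whose exons share bases with another gene on the same strand, at 0.541 CPM per kb, POLA1 at 1.69 and GINS3 at 2.05 CPM per kb, of which POLA2 overlapped neither of the other two. None of the 42 genes passed the test between DMSO at 24 h and DMSO at 4 h (edgeR quasi-likelihood test, adjusted p under 0.05, the rule used throughout and met by 0.0386% of all genes tested in that comparison). The unadjusted p was under 0.05 for 3 of them, and DESeq2 also called 0. With the replicate number as a block, RFC4 passed (adjusted p = 0.0213 in edgeR), as did 2.07% of all genes.

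After 4 h of i-BET858, 18 of the 42 genes passed the test, where 30.8% of all 17192 genes tested did. Of these 18 genes, 12 fell and 6 rose, that is 28.6% of the 42 lower and 14.3% higher, against 16.3% and 14.5% of all genes. The change reached 2-fold for 3 of them (14.1% of all genes), the falls of the primase subunit gene PRIM1, of ORC2 and of CDC7, and the rises were led by GINS4 and ORC6. The median log2 fold change of the 42 genes was -0.19, beside 0.02 over all genes. Scaling by total library size in place of TMM moved the median of all genes to -0.14 and gave 3 higher and 17 lower members, as ORC6, PCNA and POLA2 no longer passed as higher and MCM5, MCM7, ORC5, PRIM2 and RPA2 passed as lower (31.8% of all genes passed). Without replicate 3, 22 members passed (41.9% of all genes), and with the replicate block 25 did (45.4%). Leaving out single libraries gave 8 to 15 lower and 3 to 6 higher members, and whether the split differs from that of all genes was not tested.

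After 4 h of i-BET151, 5 of the 42 genes passed, or 11.9%, beside 16.2% of all genes (7.81% higher and 8.43% lower). ORC2, GINS1 and RFC3 fell, and CDC6 and GINS4 rose. The comparisons of both drugs at 4 h share the 3 DMSO libraries of 4 h, so their effects are not independent. The median log2 fold change was -0.15, beside 0.01 over all genes. The count of 5 depended on the fit. It was 17 with the replicate block (32.7% of all genes), 11 without replicate 3 (25.9%) and 10 with DESeq2 (21.1%). Leaving out only i-BET151 replicate 3 gave 9, and only i-BET858 replicate 3 gave 8, fits for which no share of all genes is given. With total library size (16.8%), 1 member was higher and 6 were lower. None of the 5 changes reached 2-fold, a size reached by 7.1% of all genes.

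After 24 h of i-BET858, 19 of the 42 genes passed, or 45.2%, near the 41.7% of all 17157 genes tested. Of these 19 genes, 14 fell, or 33.3% of the 42, beside 21.3% of all genes, and 5 rose, or 11.9%, beside 20.5%. Whether the split differs from that of all genes was not tested, and leaving out single libraries gave 11 to 15 lower and 2 to 6 higher. POLE2 and MCM5 fell by 2-fold or more, a size of change seen in 18.8% of all genes. The median log2 fold change was -0.26, beside -0.01 over all genes. With total library size the split was 2 higher and 17 lower, at a median of all genes of -0.10 (41.1% of all genes passed). The count was 27 both with the replicate block (52% of all genes) and without replicate 3 (60.7%).

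After 24 h of i-BET151, 14 of the 42 genes passed, or 33.3%, beside 33.8% of all genes. Of these 14 genes, 10 fell and 4 rose, that is 23.8% and 9.52% of the 42, beside 16.6% and 17.2% of all genes. POLE2 was the 1 member with a 2-fold change (13.7% of all genes). The comparisons of both drugs at 24 h likewise share the 24 h DMSO libraries. With the block 18 members passed (45.9% of all genes), and without replicate 3 the count was 22 (54.2%). It was 8 or 9 without any 1 DMSO library, without i-BET151 replicate 1 or 2 or without i-BET858 replicate 1. Leaving out single libraries gave 6 to 10 lower and 1 to 4 higher members. No share of all genes is given for these fits, so a change particular to the members is not shown. With total library size (33.2%), 2 members were higher and 10 lower.

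The summed level of 12 mitosis genes lay between 1717 and 2011 CPM in DMSO at 24 h, between 2410 and 2644 CPM with i-BET858 and between 2071 and 2358 CPM with i-BET151. Both drug groups lay above DMSO without overlap. Of the 12 genes, 4 rose with i-BET858 (KIF11, BUB1, CDC20 and CCNB2) and 0 fell, where 20.5% of all genes rose and 21.3% fell. With i-BET151, 2 rose and 1 fell, where 17.2% of all genes rose and 16.6% fell. In either direction, 41.7% and 33.8% of all genes passed with i-BET858 and i-BET151. Whether the shares of these genes differ from those of all genes was not tested. At 4 h the 3 groups overlapped, between 1483 and 1910 CPM. At that time 2 of the 12 genes fell with i-BET858, AURKA (-0.62) and PLK1 (-0.54), where 16.3% of all genes fell. The part of these differences in the changes of the replication genes was not tested. The summed level of the 42 genes themselves was 3114 ± 55.5 CPM in DMSO at 24 h (SD, n = 3), 2743 ± 183 CPM with i-BET858 and 2812 ± 175 CPM with i-BET151. At 4 h the sums were 3081 ± 54.3, 2902 ± 130 and 2917 ± 168 CPM in the same order.

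**Figure D1:**
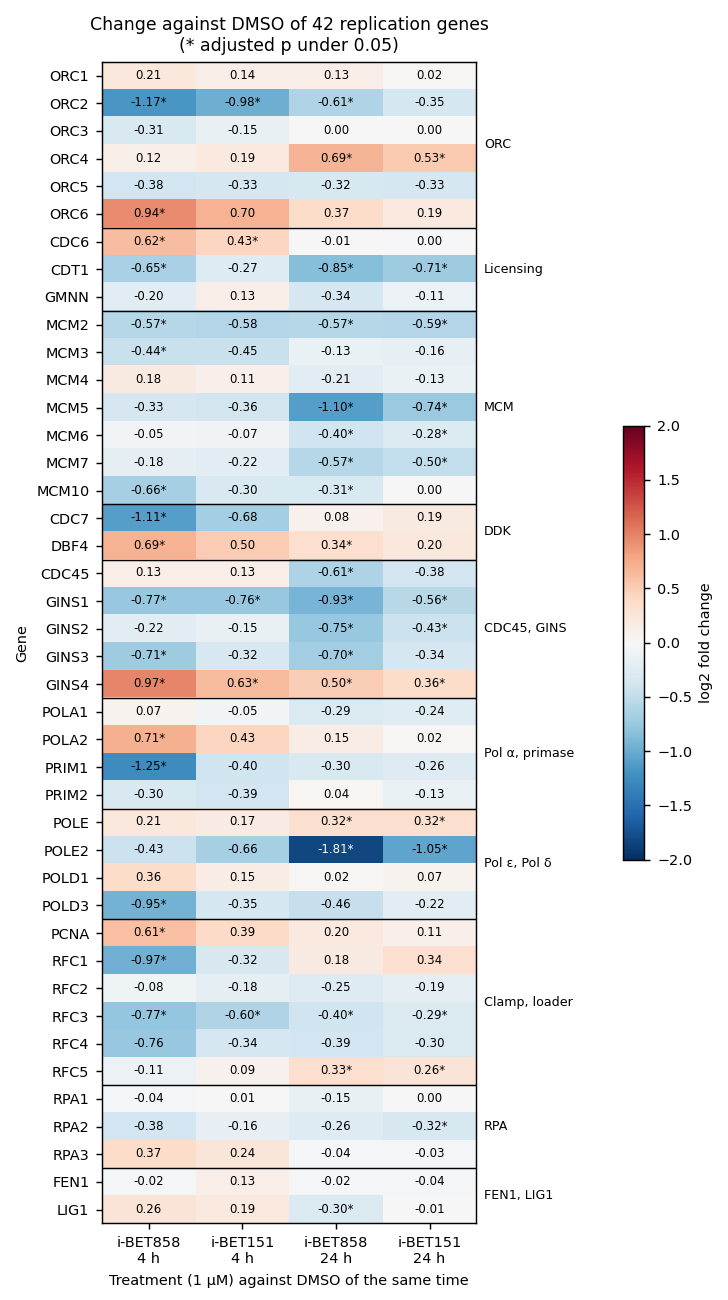
Log2 fold change of the 42 replication genes (rows, grouped by role) against DMSO of the same time for i-BET858 and i-BET151 at 4 h and 24 h (columns), with red for higher, blue for lower and a star for adjusted p under 0.05 in edgeR. The deepest fall is that of POLE2 with i-BET858 at 24 h, at -1.81, while GINS1 is lower and GINS4 higher in all 4 columns.

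Among the 6 ORC genes, which encode the complex that marks origins, the members moved in different directions. ORC2, on chromosome 2 of GRCh38 (positions 200908977 to 200963680, minus strand), stood at 31.2, 38.8 and 28.0 CPM in DMSO at 4 h (replicates 1, 2 and 3), at 15.9, 14.4 and 13.3 CPM with i-BET858 and at 18.5, 18.9 and 12.5 CPM with i-BET151. Every treated library of 4 h lay below every DMSO library. The log2 fold change was -1.17 ± 0.19 (SE) with i-BET858 (adjusted p = 0.000817, edgeR) and -0.98 ± 0.19 with i-BET151 (adjusted p = 0.0053). At 24 h ORC2 stood at 39.7, 39.5 and 30.9 CPM in DMSO, 28.5, 28.6 and 17.2 CPM with i-BET858 and 31.9, 32.4 and 23.2 CPM with i-BET151. The replicate 3 library was the lowest of its group each time. ORC2 was lower with i-BET858, at -0.61 ± 0.20 on the log2 scale (adjusted p = 0.0341, edgeR), a call that was lost without any 1 of 4 libraries (DMSO replicates 1 and 2, i-BET858 replicate 3 and i-BET151 replicate 2, adjusted p up to 0.101). With i-BET151 the 24 h value was -0.35 (adjusted p = 0.212, and 0.0137 with the replicate block).

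ORC6 and ORC4 moved the other way from ORC2. ORC6, the smallest subunit, rose with i-BET858 at 4 h from 27.3 ± 5.34 to 52.3 ± 13.5 CPM (SD, n = 3), at a log2 fold change of 0.94 (edgeR adjusted p = 0.0265). The call was lost without DMSO replicate 1 or 3 or i-BET858 replicate 1 or 2, with an adjusted p of up to 0.11. ORC4 rose at 24 h with i-BET858 by 0.69 (adjusted p = 0.000505) and with i-BET151 by 0.53 (adjusted p = 0.00362), while its 4 h values were 0.12 and 0.19. ORC1, the highest of the 6 per kb of exon, stood at 32.8, 28.2 and 37.0 CPM in DMSO at 4 h, at 35.3, 40.3 and 37.2 CPM with i-BET858 and at 36.1, 39.0 and 33.2 CPM with i-BET151. Its 24 h libraries were at 28.1, 32.3 and 30 CPM in DMSO, 31.4, 34.6 and 35.7 CPM with i-BET858 and 29.5, 29.9 and 33.3 CPM with i-BET151. The groups overlapped, and ORC1, ORC3 and ORC5 passed none of the 4 tests. ORC5 lay between -0.38 and -0.32 in the 4 comparisons. With the replicate block ORC5 passed in 3 of them (edgeR adjusted p = 0.0159 and 0.0398 with i-BET858 and i-BET151 at 4 h and 0.0483 with i-BET858 at 24 h), and ORC3 passed with i-BET858 at 4 h (-0.31, 0.0316). The block also called ORC6 with i-BET151 at 4 h (edgeR adjusted p = 0.003, beside a log2 fold change of 0.70 without the block) and with i-BET858 at 24 h (adjusted p = 0.0226).

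The licensing factors CDC6 and CDT1, which load the MCM ring together, also went in opposite directions. CDC6 stood at 78.0, 66.1 and 84.8 CPM in DMSO at 4 h, at 114, 126 and 112 CPM with i-BET858 and at 109, 105 and 94.7 CPM with i-BET151. All treated libraries of 4 h were above all DMSO libraries. It rose by 0.62 ± 0.12 on the log2 scale with i-BET858 (edgeR adjusted p = 0.00285) and by 0.43 ± 0.12 with i-BET151 (adjusted p = 0.0366). The call with i-BET151 was lost without any 1 of 5 libraries (replicate 1 or 2 of DMSO or of i-BET151, or replicate 1 of i-BET858), with an adjusted p of up to 0.155, and with total library size. By 24 h the 9 libraries lay together: 63.9, 69.2 and 69.1 CPM in DMSO, 64.8, 67.9 and 73.3 CPM with i-BET858, and 68.3, 67.5 and 69.1 CPM with i-BET151.

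CDT1 fell with i-BET858 at 4 h (-0.65 on the log2 scale, edgeR adjusted p = 0.0324), and at 24 h (-0.85, adjusted p = 0.00257), and with i-BET151 at 24 h (-0.71, adjusted p = 0.0094). The 4 h groups overlapped, and that call was lost without DMSO replicate 1 or 3 or i-BET858 replicate 1 or 2 (adjusted p up to 0.118). GMNN encodes geminin, the inhibitor of CDT1, and passed none of the 4 tests. It stood at 45.4, 46.3 and 33.7 CPM in DMSO at 4 h, at 42.7, 44.4 and 21.7 CPM with i-BET858 and at 50.7, 54.4 and 33.0 CPM with i-BET151, with replicate 3 the lowest of each group. At 24 h the values were 53.0, 53.6 and 49.5 CPM in DMSO, 44.6, 49.9 and 32.1 CPM with i-BET858 and 54.4, 49.0 and 43.2 CPM with i-BET151. The i-BET858 value at 24 h was -0.34 (adjusted p = 0.098, and 0.0172 with the replicate block).

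The helicase genes MCM2 to MCM7 and the firing factor MCM10 fell or did not pass, and none rose in any of the 4 comparisons. With i-BET858, 3 of the 7 fell at 4 h (MCM2, MCM3 and MCM10) and 5 at 24 h (MCM2, MCM5, MCM6, MCM7 and MCM10), where 16.3% and 21.3% of all genes fell. With i-BET151, 0 passed at 4 h (2 at an unadjusted p under 0.05) and 4 fell at 24 h (MCM2, MCM5, MCM6 and MCM7), where 8.43% and 16.6% of all genes fell. MCM2 and MCM3 missed the threshold narrowly with i-BET151 at 4 h (adjusted p = 0.0503 and 0.0525) and passed with the block (adjusted p = 0.000652 and 0.00694) and with DESeq2. Several of these calls rested on single libraries. With i-BET858 at 4 h, MCM2 was lost without DMSO replicate 1 or 3 or i-BET858 replicate 1 or 2, and MCM3 without these or DMSO replicate 2 (edgeR adjusted p up to 0.121 and 0.117). With i-BET858 at 24 h, MCM10 was lost without any library other than the replicate 3 libraries of DMSO and i-BET151, and with i-BET151 at 24 h, MCM6 without any library other than i-BET858 replicate 3 (edgeR adjusted p up to 0.122 and 0.0989).

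MCM5, on chromosome 22 (35400134 to 35425431, plus strand), had the largest change of the ring. It stood at 97.3, 103 and 102 CPM in DMSO at 24 h, at 50.1, 56.6 and 38.8 CPM with i-BET858 and at 62.6, 58.6 and 63.2 CPM with i-BET151. The 3 groups did not overlap. The fall was 2.14-fold with i-BET858 (log2 fold change -1.10 ± 0.13, edgeR adjusted p = 8.29e-05) and -0.74 ± 0.13 on the log2 scale with i-BET151 (adjusted p = 0.00147). At 4 h it stood at 106, 103 and 121 CPM in DMSO, 79.0, 71.8 and 111 CPM with i-BET858 and 76.6, 85.1 and 96.0 CPM with i-BET151. Replicate 3 was the highest of each 4 h group and made i-BET858 overlap DMSO. The 4 h log2 fold changes of -0.33 and -0.36 did not pass (adjusted p = 0.169 and 0.179, and 0.0109 and 0.0124 with the replicate block).

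MCM7, the most abundant of the 42 genes, changed less. It stood at 419, 433 and 450 CPM in DMSO at 24 h, at 296, 330 and 273 CPM with i-BET858 and at 331, 313 and 292 CPM with i-BET151. Both drug groups lay below DMSO, at -0.57 ± 0.10 (edgeR adjusted p = 0.000855) and -0.50 ± 0.10 on the log2 scale (adjusted p = 0.00276). Its 4 h libraries were at 423, 399 and 467 CPM in DMSO, 376, 323 and 439 CPM with i-BET858 and 359, 369 and 382 CPM with i-BET151. Neither 4 h value passed (-0.18 and -0.22), though that of i-BET151 did with the block (edgeR adjusted p = 0.0465). Exons of MCM7 overlap those of AP4M1 on the opposite strand and of MIR93, and the strand used in counting is not given in the sources used here. For MCM2, 1113 of 4715 exon bases overlap another gene on the opposite strand. MCM2 fell from 211 ± 22.7 CPM to 146 ± 5.74 and 143 ± 10.4 CPM at 24 h (SD, n = 3), while MCM4 passed none of the 4 tests, with values between -0.21 and 0.18, and with the block passed with i-BET858 at 24 h (edgeR adjusted p = 0.021).

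CDC7 and DBF4 encode the catalytic and the activating subunit of the kinase that fires origins, and at 4 h of i-BET858 they changed in opposite directions. CDC7, on chromosome 1 (91500851 to 91525764, plus strand), stood at 27.1, 29.4 and 26.0 CPM in DMSO at 4 h, at 14.0, 12.9 and 11.3 CPM with i-BET858 and at 19.1, 22.3 and 10.5 CPM with i-BET151. Every treated library was below DMSO, and the replicate 3 library of i-BET151 was as low as those of i-BET858. The fall was 2.16-fold with i-BET858 (log2 fold change -1.11 ± 0.24, edgeR adjusted p = 0.00418). With i-BET151 the value was -0.68 ± 0.23 (adjusted p = 0.0743, and 0.00375 with the replicate block). At 24 h CDC7 was back at the level of the controls, with 30.4, 31.2 and 20.9 CPM in DMSO, 31.8, 32.1 and 25.6 CPM with i-BET858 and 34.3, 35.2 and 25.8 CPM with i-BET151. DBF4 rose with i-BET858 from 36.6 ± 3.81 to 58.8 ± 11 CPM at 4 h (log2 fold change 0.69, edgeR adjusted p = 0.00867) and from 33.4 ± 1.99 to 43.3 ± 0.971 CPM at 24 h (0.34, adjusted p = 0.0281; SD, n = 3). The 24 h call was lost without replicate 1 or 2 of DMSO or of i-BET858 (adjusted p up to 0.109), with total library size (0.089) and with no low-count filter (0.0562). With i-BET151 at 4 h the value of DBF4 was 0.50 (edgeR adjusted p = 0.0629, and 0.00286 with the block).

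**Figure D2:**
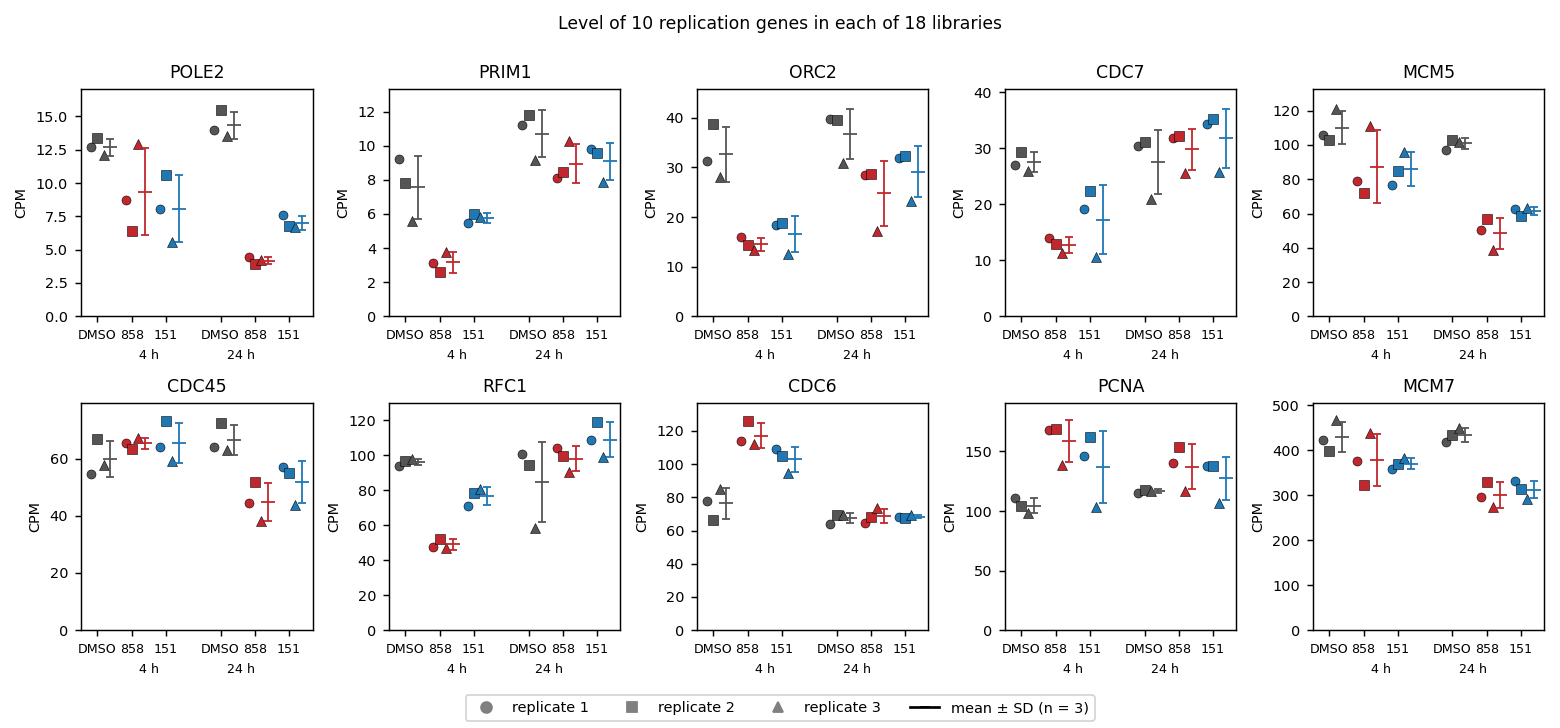
Level in CPM of 10 replication genes in each of the 18 libraries, by drug and time, with the replicates as separate marker shapes and the mean ± SD (n = 3) beside each group. CDC7, PRIM1 and RFC1 are low with i-BET858 at 4 h and CDC7 and RFC1 are near DMSO at 24 h, where PRIM1 replicates 1 and 2 of i-BET858 lie below DMSO and replicate 3 does not, whereas POLE2, MCM5, CDC45 and MCM7 are lowest with i-BET858 at 24 h.

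CDC45 and the 4 GINS genes encode the factors that complete the active helicase, and all 5 passed after 24 h of i-BET858, where 41.7% of all genes did. GINS1, GINS2, GINS3 and CDC45 fell and GINS4 rose. GINS1 passed in all 4 comparisons, at -0.77 and -0.76 on the log2 scale at 4 h and -0.93 and -0.56 at 24 h for i-BET858 and i-BET151. Its level was 42.2 ± 3.04 CPM in DMSO at 4 h (SD, n = 3), 24.8 ± 1.66 CPM with i-BET858 and 25.0 ± 0.985 CPM with i-BET151. GINS4 was the mirror of GINS1, at 26.9, 25.9 and 28.0 CPM in DMSO at 4 h, 48.9, 58.1 and 51.1 CPM with i-BET858 and 43.5, 42 and 39.6 CPM with i-BET151. No treated library of GINS4 overlapped DMSO at 4 h, and the log2 fold changes were 0.97 and 0.63 at 4 h (adjusted p = 0.000133 and 0.00501) and 0.50 and 0.36 at 24 h (edgeR adjusted p = 0.00262 and 0.0186). The call of GINS4 with i-BET151 at 24 h was lost without DMSO replicate 1 or i-BET151 replicate 1 or 2 (adjusted p up to 0.0831) and with no low-count filter (0.081). GINS2 fell at 24 h with both drugs, at -0.75 and -0.43, and the call of the latter was lost without DMSO replicate 3 or i-BET151 replicate 2 (adjusted p up to 0.0823) and with all 18 libraries in 1 fit (0.0553). GINS3 fell with i-BET858 at both times, at -0.71 and -0.70, and its 4 h call was lost without DMSO replicate 1 (edgeR adjusted p = 0.0516). The exons of all 4 GINS genes overlap a gene on the opposite strand.

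CDC45, on chromosome 22 (19479457 to 19520612, plus strand), stood at 64.2, 72.6 and 62.9 CPM in DMSO at 24 h, at 44.6, 51.7 and 38.1 CPM with i-BET858 and at 57.2, 54.9 and 43.6 CPM with i-BET151. Both drug groups lay below DMSO without overlap. The fall passed with i-BET858 (-0.61 ± 0.14 on the log2 scale, edgeR adjusted p = 0.0046), and with i-BET151 the value was -0.38 ± 0.14 (adjusted p = 0.0531, and 0.0059 with the block). At 4 h the groups overlapped, with 54.6, 66.8 and 57.8 CPM in DMSO, 65.6, 63.2 and 67.2 CPM with i-BET858 and 64.0, 73.2 and 59.1 CPM with i-BET151.

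Among the genes of the polymerase α and primase complex, which starts each new strand, PRIM1 and POLA2 changed after 4 h of i-BET858 and none passed in the other 3 comparisons. POLA1, the catalytic polymerase subunit, had -0.29 with i-BET858 at 24 h (edgeR adjusted p = 0.107, and 0.0436 with the block). PRIM1, the catalytic primase subunit, on chromosome 12 (56730438 to 56752374, minus strand), stood at 9.24, 7.81 and 5.61 CPM in DMSO at 4 h, at 3.10, 2.59 and 3.78 CPM with i-BET858 and at 5.45, 6 and 5.82 CPM with i-BET151. The i-BET858 libraries lay below all others of 4 h, and i-BET151 overlapped DMSO through the low DMSO replicate 3. The fall with i-BET858 was 2.38-fold (log2 fold change -1.25 ± 0.25, edgeR adjusted p = 0.00259), and the i-BET151 value was -0.40 (adjusted p = 0.312). At 24 h PRIM1 stood at 11.2, 11.8 and 9.14 CPM in DMSO, 8.12, 8.45 and 10.3 CPM with i-BET858 and 9.81, 9.58 and 7.86 CPM with i-BET151, and the groups overlapped. The i-BET858 value at 24 h was -0.30 (edgeR adjusted p = 0.187), and without replicate 3, which ran the other way, it passed as lower (-0.50, adjusted p = 0.00293). This gene had the lowest count of the 42. Its exons share bases with NACA (139) and another gene (362) on the same strand, and with HSD17B6 on the other. Reads there may be split between them or dropped.

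POLA2 rose by 0.71 with i-BET858 at 4 h (edgeR adjusted p = 0.0471). That call was lost without replicate 3 (adjusted p = 0.0753) and without any 1 DMSO library, i-BET858 replicate 1 or 3 or i-BET151 replicate 1 (edgeR adjusted p up to 0.162), with total library size (0.13) and with no low-count filter (0.0806). Exons of POLA2 share bases with another gene on the same strand and with one on the other, so its reads may be split or dropped. PRIM2, the other primase subunit, stood at 54.1, 52.2 and 45.6 CPM in DMSO at 4 h, 39.8, 37.8 and 45.1 CPM with i-BET858 and 41.6, 41.6 and 33.3 CPM with i-BET151. Both drug groups were below DMSO, at -0.30 and -0.39 on the log2 scale (edgeR adjusted p = 0.124 and 0.0853; the latter 0.0222 with the block). Its 24 h libraries overlapped, at 50.2, 53.4 and 63.8 CPM in DMSO, 57.2, 62.5 and 57.1 CPM with i-BET858 and 59.7, 56.5 and 39.8 CPM with i-BET151.

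POLE2, the accessory subunit of polymerase ε, had the largest change of the 42 genes in any of the 4 comparisons. On chromosome 14 (49643555 to 49688422, minus strand), it stood at 14.0, 15.5 and 13.5 CPM in DMSO at 24 h, at 4.44, 3.89 and 4.21 CPM with i-BET858 and at 7.57, 6.75 and 6.67 CPM with i-BET151. The 3 groups did not overlap. It fell 3.51-fold with i-BET858 (log2 fold change -1.81 ± 0.15, edgeR adjusted p = 8.01e-06) and 2.08-fold with i-BET151 (-1.05 ± 0.15, adjusted p = 0.000367). At 4 h the libraries were at 12.7, 13.4 and 12.1 CPM in DMSO, 8.76, 6.43 and 12.9 CPM with i-BET858 and 8.06, 10.6 and 5.56 CPM with i-BET151. The replicate 3 library of i-BET858 was at the level of DMSO, and neither 4 h value passed (-0.43, adjusted p = 0.278, and -0.66, adjusted p = 0.144). Without replicate 3 the value of i-BET858 at 4 h passed (edgeR adjusted p = 0.0123).

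The catalytic subunit of the same polymerase, POLE, went the other way from POLE2 at 24 h, with a rise of 0.32 with each drug (edgeR adjusted p = 0.0308 and 0.0391). The call with i-BET858 was lost without any 1 library of DMSO or i-BET858 (adjusted p up to 0.0702), that with i-BET151 without any library other than i-BET858 replicate 3 and i-BET151 replicate 2 (up to 0.13), both with total library size, and without all replicate 3 libraries the adjusted p of i-BET151 was 0.104. POLD3, a subunit of polymerase δ, fell with i-BET858 at 4 h (-0.95, adjusted p = 0.00146). Its values of -0.35 with i-BET151 at 4 h and -0.46 with i-BET858 at 24 h passed with the block (edgeR adjusted p = 0.199 and 0.0705 without it, 0.0252 and 0.00221 with it), and the 24 h value also with DESeq2 (adjusted p = 0.0468), with no low-count filter and without replicate 3 (edgeR adjusted p = 0.000141). POLD1, the catalytic subunit of polymerase δ, stood at 45.1, 49.2 and 44.7 CPM in DMSO at 4 h, 53.5, 55.3 and 69.6 CPM with i-BET858 and 50, 53.2 and 51 CPM with i-BET151. Both drug groups were above DMSO without overlap, but neither passed (i-BET858 0.36, edgeR adjusted p = 0.0533, and 0.0147 with the block). With i-BET858 at 4 h it also passed with DESeq2, with DESeq2 size factors, with at least 10 counts in every library and with all 18 libraries in 1 fit. At 24 h POLD1 stood at 59.5, 56.4 and 45.9 CPM in DMSO, 56.9, 60.2 and 51.4 CPM with i-BET858 and 63.1, 52.7 and 56.9 CPM with i-BET151, with overlap. Exons of POLD1 and POLD3 share bases with another gene on the same strand.

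PCNA, the sliding clamp, and RFC1, the large subunit of its loader, moved apart at 4 h of i-BET858. PCNA stood at 111, 104 and 98.6 CPM in DMSO at 4 h, at 168, 169 and 139 CPM with i-BET858 and at 146, 162 and 103 CPM with i-BET151. It rose with i-BET858 by 0.61 ± 0.16 (edgeR adjusted p = 0.0134), a call lost without DMSO replicate 2 or 3 or i-BET858 replicate 2 (adjusted p up to 0.0537) and with total library size (adjusted p = 0.074). The replicate 3 library of i-BET151 was at the level of DMSO, and the i-BET151 value of 0.39 did not pass (adjusted p = 0.13, and 0.0106 with the block). At 24 h PCNA stood at 115, 118 and 117 CPM in DMSO, 140, 154 and 117 CPM with i-BET858 and 138, 138 and 107 CPM with i-BET151, and neither value passed. Without replicate 3 both passed as higher (0.31 and 0.21, edgeR adjusted p = 0.00245 and 0.0264), as did i-BET151 at 4 h (0.00598).

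RFC1, on chromosome 4 (39287456 to 39366375, minus strand), stood at 94.0, 96.7 and 97.7 CPM in DMSO at 4 h, at 47.7, 52.4 and 46.9 CPM with i-BET858 and at 71.3, 78.4 and 81.0 CPM with i-BET151. The 3 groups did not overlap and varied little within themselves. RFC1 fell with i-BET858 (-0.97 ± 0.11 on the log2 scale, edgeR adjusted p = 7.08e-05), and the i-BET151 value was -0.32 ± 0.11 (adjusted p = 0.0666, and 0.0122 with the block). At 24 h it stood at 101, 94.4 and 58.6 CPM in DMSO, 104, 99.9 and 90.2 CPM with i-BET858 and 109, 119 and 98.8 CPM with i-BET151. The replicate 3 library of DMSO was far below the other two, and neither 24 h value passed (0.18 and 0.34). With the block the 24 h value of i-BET151 did pass (edgeR adjusted p = 0.0176).

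Of the smaller loader subunits, RFC3 fell in all 4 comparisons, at -0.77 and -0.60 at 4 h and at -0.40 and -0.29 at 24 h. The last of these was lost without any library other than i-BET858 replicate 3 (edgeR adjusted p up to 0.12). RFC5 rose at 24 h with both drugs. It stood at 41.5, 39.2 and 38.6 CPM in DMSO at 24 h, 49.6, 53.7 and 50.7 CPM with i-BET858 and 48.9, 47.5 and 48.6 CPM with i-BET151, with no overlap with DMSO. The log2 fold changes were 0.33 ± 0.09 (adjusted p = 0.0116, and 0.0559 without DMSO replicate 2) and 0.26 ± 0.09 (edgeR adjusted p = 0.0436, lost without any library other than i-BET858 replicate 3). With total library size neither passed. At 4 h RFC5 stood at 40.3, 38.3 and 35.5 CPM in DMSO, 36.0, 37.1 and 32.4 CPM with i-BET858 and 40.4, 42.9 and 38.7 CPM with i-BET151, with overlap. RFC2 and RFC4 passed in none of the 4 comparisons, though RFC4 had -0.76 with i-BET858 at 4 h (adjusted p = 0.083, and 0.000325 with the block). The block also called RFC4 at 24 h with both drugs (edgeR adjusted p = 0.00766 and 0.0335) and RFC2 with i-BET858 at 24 h (0.0451).

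The RPA genes and the Okazaki fragment genes changed little. RPA1, the large subunit of the single-strand binding complex, stood at 153, 131 and 130 CPM in DMSO at 4 h, 135, 131 and 135 CPM with i-BET858 and 140, 135 and 143 CPM with i-BET151. Its 24 h libraries were at 144, 133 and 153 CPM in DMSO, 135, 130 and 131 CPM with i-BET858 and 145, 149 and 142 CPM with i-BET151. All groups overlapped DMSO, and the 95% intervals of the 4 log2 fold changes lay between -0.35 and 0.24. With total library size RPA1 passed as lower with i-BET858 at 24 h. FEN1, the flap endonuclease, stood at 178, 177 and 158 CPM in DMSO at 4 h, 170, 184 and 151 CPM with i-BET858 and 184, 219 and 161 CPM with i-BET151. At 24 h FEN1 was at 184, 196 and 167 CPM in DMSO, 187, 208 and 159 CPM with i-BET858 and 191, 185 and 162 CPM with i-BET151. Its 4 intervals lay between -0.31 and 0.42, and its exons share some bases with FADS2 on the same strand. RPA2 was lower with i-BET151 at 24 h (-0.32, adjusted p = 0.0478) and LIG1, the ligase, with i-BET858 at 24 h (-0.30, edgeR adjusted p = 0.0317), and the calls were lost without any library other than i-BET151 replicate 1 for RPA2 and i-BET151 replicate 3 for LIG1 (adjusted p up to 0.133 and 0.102). RPA3 passed none of the 4 tests. With the block RPA2 and RPA3 passed with i-BET858 at 4 h (edgeR adjusted p = 0.00793 and 0.0121), beside log2 fold changes of -0.38 and 0.37 without the block. In all, 13 of the 42 genes passed in none of the 4 drug comparisons: ORC1, ORC3, ORC5, GMNN, MCM4, POLA1, PRIM2, POLD1, RFC2, RFC4, RPA1, RPA3 and FEN1. Of the 16570 genes tested at both times, 41.1% passed in none. With the replicate block ORC1, RPA1 and FEN1 alone of these passed in none of the 4.

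The direct comparison of i-BET858 with i-BET151 at the same dose and time was made for each of the 42 genes at each of the 2 times, with p-values adjusted over all genes tested. At 4 h 1 member passed, RFC1, where 0.971% of all genes did. RFC1 was lower with i-BET858 than with i-BET151, with a log2 ratio of -0.64 (95% interval -0.88 to -0.40, edgeR adjusted p = 0.029). Its call was lost without any 1 of 8 of the 9 libraries, DMSO replicate 3 being the exception (adjusted p up to 0.128), and in a fit of the 2 drug groups alone, while with DESeq2 the adjusted p was 3.79e-06 and with the block 0.000785. PRIM1 differed by -0.86 (interval -1.40 to -0.32, edgeR adjusted p = 0.145) and POLD3 by -0.60 (interval -0.97 to -0.23, adjusted p = 0.136), and both passed with the block (0.0333 and 0.00512), with DESeq2 and without replicate 3. Those fits called 9.63%, 5.92% and 2.29% of all genes.

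At 24 h none of the 42 genes passed between the drugs, where 0.21% of all genes did, although 6 had an unadjusted p under 0.05 and DESeq2 called 1, POLE2. POLE2 was lower with i-BET858, with a log2 ratio of -0.76 (interval -1.09 to -0.43, edgeR adjusted p = 0.0787), and its libraries did not overlap between the drugs. It passed with the block (edgeR adjusted p = 0.0162) and without replicate 3 (0.00947), where GINS1 passed too (0.0288). The block called 4.37% of all genes, DESeq2 4.05% and the fit without replicate 3 7.29%. The intervals also bound how far the drugs could differ: 40 of 42 lay within a 2-fold difference in either direction at 4 h, all but PRIM1 and RFC4, and 41 of 42 at 24 h, all but POLE2. The median of the 42 differences was 0.00 at 4 h and -0.06 at 24 h, with a median interval half-width of 0.33 and 0.27. For MCM2 the difference was 0.01 at 4 h, where MCM2 passed with i-BET858 and not with i-BET151.

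**Figure D3:**
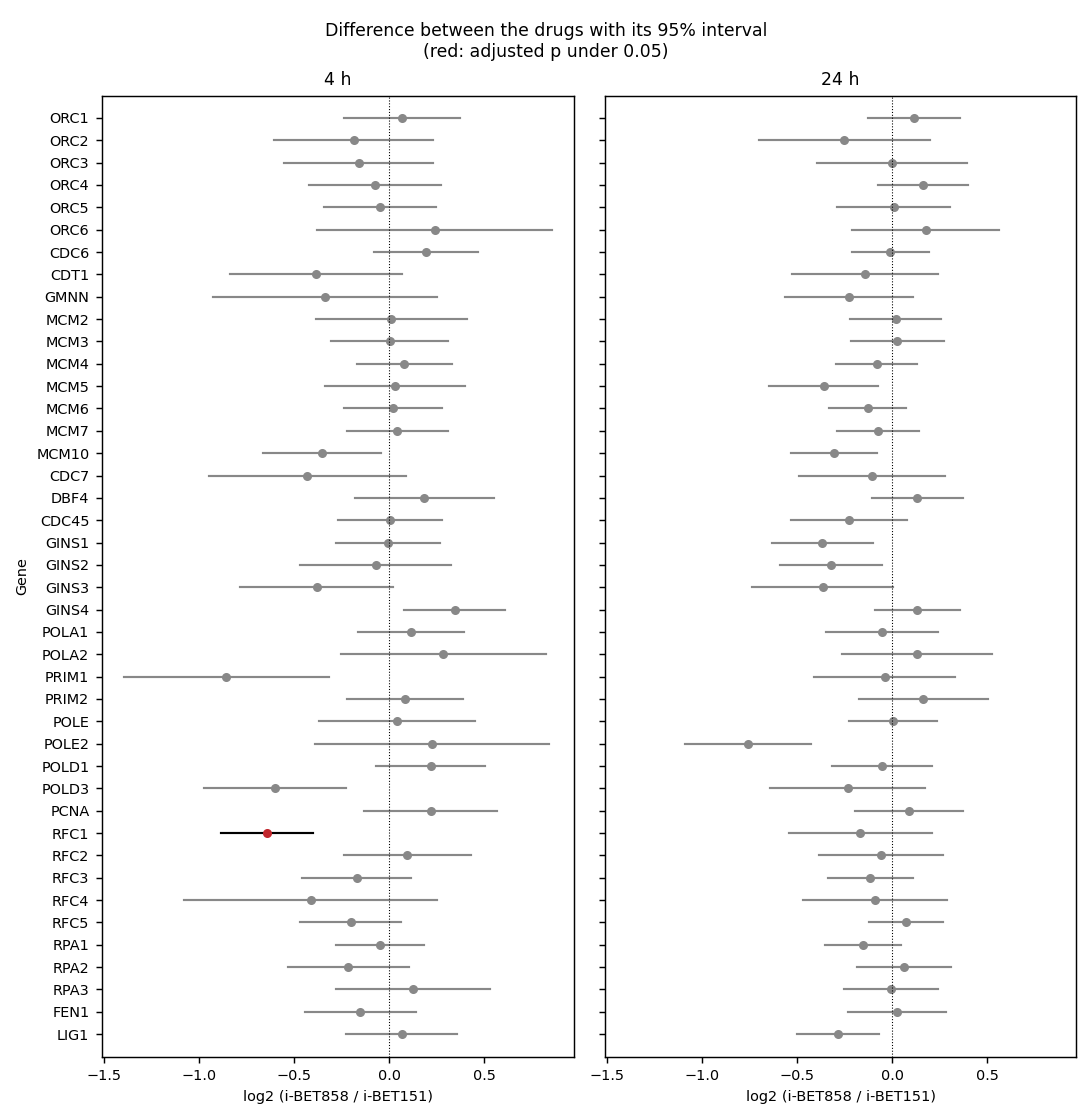
Log2 ratio of i-BET858 to i-BET151 (points) with its 95% interval (lines) for each of the 42 genes at 4 h (left) and 24 h (right), with RFC1 at 4 h, the member that passed, in red. Most intervals include 0, while 5 at 4 h and 6 at 24 h exclude it. Among those that exclude it, PRIM1 and POLD3 at 4 h and POLE2 at 24 h lie wholly below 0.

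Whether the effect of a drug changed between 4 h and 24 h was tested as the drug-by-time term of a fit of all 18 libraries. For i-BET858, 11 of the 42 genes passed, or 26.2%, near the 27.2% of all genes. The effect moved up for 5 of them and down for 6. CDC7, RFC1 and PRIM1 had fallen at 4 h and did not pass at 24 h, with changes of effect of 1.23 ± 0.31 (edgeR adjusted p = 0.00646), 1.18 ± 0.21 (adjusted p = 0.000464) and 1.00 ± 0.29 (adjusted p = 0.0162, 0.0569 without DMSO 4 h replicate 1 and 0.0555 with no low-count filter). CDC6 had risen at 4 h and was near DMSO at 24 h, with a change of -0.59 ± 0.15 (adjusted p = 0.00599). POLE2, MCM5 and CDC45 fell at 24 h and had not passed at 4 h. Their changes were -1.34 ± 0.33 (edgeR adjusted p = 0.00551), -0.72 ± 0.22 (adjusted p = 0.0187, and 0.0522 without i-BET858 24 h replicate 3) and -0.70 ± 0.19 (adjusted p = 0.00983). Without replicate 3, POLE2 and MCM5 did pass as lower at 4 h, as did MCM5 with the block. The lowest change of effect of any member was then -1.05 without replicate 3.

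The other members with a changed effect of i-BET858 were ORC4 (0.61), RFC5 (0.48), LIG1 (-0.51) and GINS4 (-0.43). The call of RFC5 was lost without i-BET858 4 h replicate 3 (edgeR adjusted p = 0.0508), that of LIG1 without DMSO 4 h replicate 1 (0.0525), that of ORC4 without any 1 of 7 of the 18 libraries (up to 0.0885) and that of GINS4 without any 1 of 9 (up to 0.113) and with total library size (0.0662). With no low-count filter the calls of RFC5 (0.14), LIG1 (0.227) and GINS4 (edgeR adjusted p = 0.327) were lost too. Without DMSO 4 h replicate 1, 7 members passed in all, in a fit for which no share of all genes is given. ORC2 fell at both times, less so at 24 h, with a change of 0.60 (edgeR adjusted p = 0.143, and 0.0116 with the block). The block gave 17 members with a changed effect in place of 11 (38.3% of all genes), adding, beside ORC2, GINS2 (edgeR adjusted p = 0.0316), MCM4 (0.0405), PCNA (0.0407), POLD3 (0.00747) and RFC3 (0.0283). Of the members called with i-BET858, 9 were called at both times and in the same direction: CDT1, GINS1, GINS3, MCM2, MCM10, ORC2 and RFC3 lower, and DBF4 and GINS4 higher. Of the 16570 genes tested at both times, 15.3% were called so. For i-BET151, 1 member passed, RFC1, at 0.68 ± 0.21 (adjusted p = 0.0377), where 13.8% of all genes did. That call was lost without any 1 DMSO 4 h library, replicate 1 or 2 of i-BET151 at either time or i-BET858 24 h replicate 2 (edgeR adjusted p up to 0.104) and with total library size, and with the block 5 members passed (25.2% of all genes), adding CDC7 (edgeR adjusted p = 0.00139), ORC2 (0.00768), CDC45 (0.0181) and CDC6 (0.0337).

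**Figure D4:**
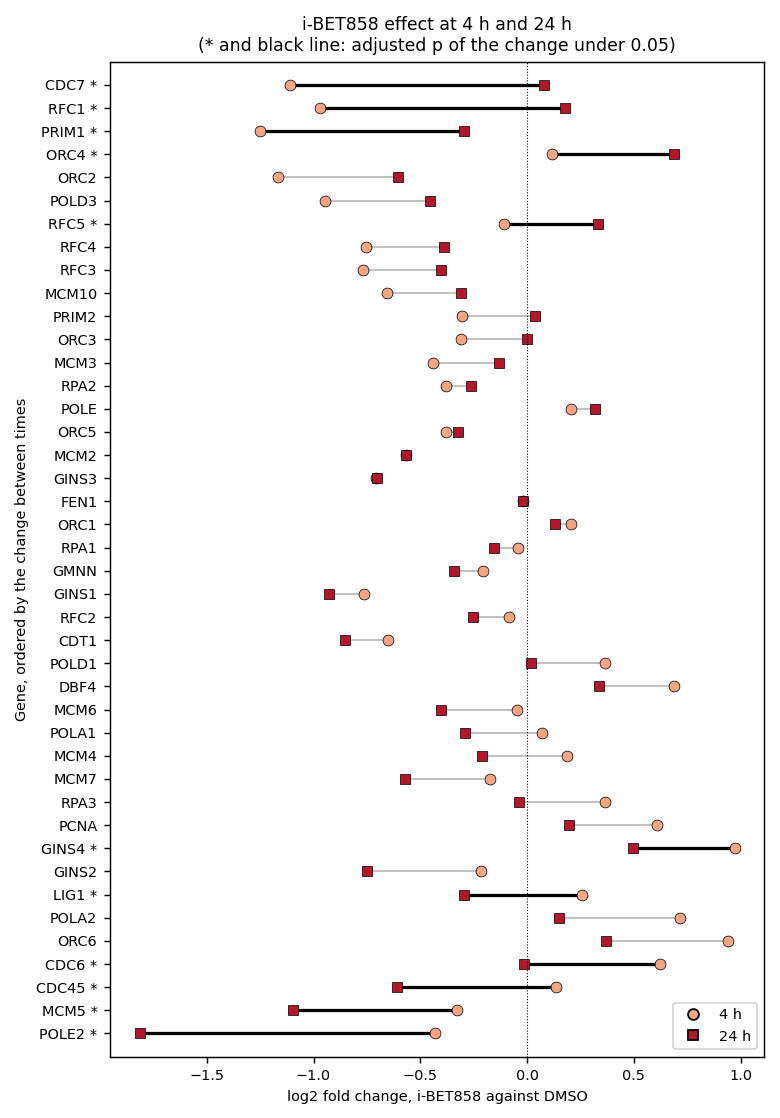
Log2 fold change of each of the 42 genes with i-BET858 against DMSO at 4 h (circles) and at 24 h (squares), ordered by the change between times, with a star and a black line where that change passed. CDC7, RFC1 and PRIM1 move from well below 0 towards 0, and POLE2 and MCM5 move further down, to -1.81 and -1.10.

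The DNA in front of these genes was read because many replication genes are known targets of the E2F factors, which bind words of the form TTTCCCGC, TTTCGCGC, TTTGGCGC and TTTGCCGC, and of NF-Y, which binds CCAAT. RefSeq promoter entries on GRCh38.p14 were found for 36 of the 42 genes. Within the 250 bases before any listed start, an E2F word was found on either strand for 14 of the 36 genes, or 38.9%, beside 3.4% of 27305 genes with an entry. CCAAT was found for 20 of the 36, or 55.6%, beside 37.0% of all. An E2F word was present for 4 of 11 genes that fell with i-BET858 at 4 h, 2 of 5 that rose and 8 of 20 that did not pass. At 24 h the figures were 6 of 13, 1 of 4 and 7 of 19. The 5 sequences shown were picked by gene from the 8 windows with no annotated exon inside. MCM6, GINS2 and CDT1 hold E2F words and fell with both drugs at 24 h. CDC6 and CDC7 changed at 4 h and were near DMSO at 24 h. MCM10, not shown, fell with i-BET858 at both times. Its window, also free of exons, holds CCAAT at 2 places and none of the listed E2F words. A link between these words and the changes was not tested. Each sequence shown is the 250 bases before the start, 5′ to 3′ on the strand of the gene. E2F words and CCAAT are in capitals (GCGGGAAA is TTTCCCGC and ATTGG is CCAAT, read on the other strand).
MCM6: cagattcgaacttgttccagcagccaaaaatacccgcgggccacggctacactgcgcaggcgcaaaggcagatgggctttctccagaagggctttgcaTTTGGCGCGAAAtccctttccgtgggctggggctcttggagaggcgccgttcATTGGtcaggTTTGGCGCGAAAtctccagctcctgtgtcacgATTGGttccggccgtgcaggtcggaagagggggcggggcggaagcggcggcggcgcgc
GINS2: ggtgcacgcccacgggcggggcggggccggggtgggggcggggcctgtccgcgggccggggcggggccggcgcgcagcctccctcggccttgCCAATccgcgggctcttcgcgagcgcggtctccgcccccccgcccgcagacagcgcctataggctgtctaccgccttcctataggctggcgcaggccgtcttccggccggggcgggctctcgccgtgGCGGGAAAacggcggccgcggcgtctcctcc
CDT1: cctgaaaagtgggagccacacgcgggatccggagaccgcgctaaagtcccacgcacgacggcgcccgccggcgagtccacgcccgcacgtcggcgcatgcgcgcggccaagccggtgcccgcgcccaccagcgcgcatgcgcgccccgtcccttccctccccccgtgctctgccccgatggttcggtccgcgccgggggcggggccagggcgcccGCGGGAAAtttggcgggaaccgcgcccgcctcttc
CDC6: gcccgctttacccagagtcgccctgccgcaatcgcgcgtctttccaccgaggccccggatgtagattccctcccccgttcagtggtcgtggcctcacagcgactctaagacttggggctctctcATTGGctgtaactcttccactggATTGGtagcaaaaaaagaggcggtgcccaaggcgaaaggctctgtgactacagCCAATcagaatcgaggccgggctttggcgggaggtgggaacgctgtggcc
CDC7: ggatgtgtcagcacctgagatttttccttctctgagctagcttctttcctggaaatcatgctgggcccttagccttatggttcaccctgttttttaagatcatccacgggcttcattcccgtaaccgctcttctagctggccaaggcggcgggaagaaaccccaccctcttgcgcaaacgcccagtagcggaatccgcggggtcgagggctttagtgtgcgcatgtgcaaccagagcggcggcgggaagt

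The window of MCM6 (chr2:135876444-135876693, minus strand) holds a pair of 12-base runs in which an E2F word on each strand overlap, and CCAAT on the other strand at 2 places. GINS2 (chr16:85688955-85689204, minus strand) has an E2F word that begins 31 bases before the start, and CDT1 (chr16:88803539-88803788, plus strand) has one 35 bases before it. CDC6 (chr17:40287629-40287878, plus strand) holds none of the exact E2F words searched in this window and CCAAT at 3 places, counting both strands. CDC7 (chr1:91500601-91500850, plus strand) holds neither in this window, and 2 E2F words in the window of its other listed start, which lies in a stretch with annotated exons. These are matches of letters to the exact words listed. Other forms of an E2F site were not searched, so a window without these words may still hold one. No binding was measured.

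Another 42 replication genes outside the list were counted the same way: further firing factors, fork subunits, chromatin assembly factors and enzymes of nucleotide supply. With i-BET858, 20 of 42 passed at 4 h (11 higher and 9 lower, where 30.8% of all genes passed) and 20 of 41 tested at 24 h (10 and 10, where 41.7% did). With i-BET151, 10 passed at 4 h (5 and 5, where 16.2% of all genes passed) and 16 at 24 h (10 higher and 6 lower, where 33.8% did). Their median log2 fold change was 0.15, 0.10, -0.07 and 0.04 in i-BET858 at 4 h, i-BET151 at 4 h, i-BET858 at 24 h and i-BET151 at 24 h. The largest changes with i-BET858 at 24 h were those of RRM2B, the p53-inducible ribonucleotide reductase subunit (1.59, from 43.9 ± 2.67 to 136 ± 16.9 CPM, SD, n = 3), RNASEH2C (1.59) and RNASEH2B (-1.33), subunits of the same ribonuclease H2, and TIPIN, of the fork protection complex (-1.30).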

How the data were processed

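Poly-A RNA was sequenced with paired ends on a NovaSeq by the authors, who aligned reads to GRCh38 with STAR and deposited STAR gene counts, 1 table per time, as raw counts without normalisation. The gene annotation release and strand column are not given in the sources used here. Of 58825 identifiers, 99.4% matched GENCODE 44, which gave symbols, positions and exon lengths.

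Tests used edgeR 4.0.16 in R 4.3.3 (TMM, filterByExpr, quasi-likelihood F test, two-sided, Benjamini-Hochberg adjustment over all genes tested), with the 9 libraries of a time in 1 fit, or all 18 for contrasts between times. Genes with adjusted p under 0.05 passed, and those that also changed 2-fold were counted separately. CPM used TMM factors of all 18 libraries. DESeq2 1.42.0, other scalings and filters, a replicate block and leaving out libraries were alternatives, and the scripts were tested on simulated data.

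Deviations from group means correlated for every same-numbered pair of libraries, at 0.125 to 0.344 at 4 h and 0.145 to 0.33 at 24 h. Blocked values therefore stand beside results they change. Differently numbered pairs ran from -0.311 to 0.216 and from -0.304 to 0.285. Those above 0 were all between replicates 1 and 2, and those with replicate 3 were all below 0. Deviations in a group sum to 0, so a replicate 3 that stands apart would alone make replicates 1 and 2 correlate. At 24 h, pairs of replicates 1 and 2 ran from 0.145 to 0.277 with the same number and from 0.184 to 0.285 with different numbers. A pairing of replicate 1 against replicate 2 is thus not shown at 24 h. The block rests on these correlations and on the shared numbers in the sample names. Values in every library are given for members with a 2-fold change that passed, for the highest member per kb of each role, and for up to 8 members past the test in a drug difference or change of effect. GINS4, outside this rule, was given in every library of 4 h after its values were seen. Members and lists were chosen with earlier results of these data known.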

Additional observations from a re-analysis of the deposited data

Results flagged for a closer look

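Several members differed between drugs or between times by a direct test of that difference (edgeR, adjusted p under 0.05). At 4 h, RFC1 was lower with i-BET858 than with i-BET151, with a log2 ratio of -0.64. The effect of i-BET858 on the log2 scale was higher at 24 h than at 4 h for CDC7 (1.23), RFC1 (1.18), PRIM1 (1), ORC4 (0.61) and RFC5 (0.48). It was lower at 24 h than at 4 h for POLE2 (-1.34), MCM5 (-0.72), CDC45 (-0.7), CDC6 (-0.59), LIG1 (-0.51) and GINS4 (-0.43). The effect of i-BET151 was higher at 24 h than at 4 h for RFC1 (0.68). No explanation of these differences was tested. Without replicate 3 the lowest change of the i-BET858 effect of any member was -1.05. For RFC1, the 24 h DMSO libraries included the 1 of 58.6 CPM in replicate 3, and without replicate 3 the changes of its effect were 0.98 and 0.55 (edgeR adjusted p = 7.46e-05 and 0.00937).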

How the results depend on the processing

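Of 69 member values that passed, 40 passed in every alternative run and 0 of 1326 alternative values reversed direction, while 188 kept it without passing. Of 309 values that did not pass, 101 changed sign in some alternative.

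With the replicate block no call of a member was lost, and members passing numbered 25 and 17 at 4 h and 27 and 18 at 24 h for i-BET858 and i-BET151, 3 and 1 for the drug difference at 4 h and 24 h, 17 and 5 for the change of effect of i-BET858 and i-BET151, and 1 between DMSO times. Leaving out libraries gave 12 to 22 (i-BET858 at 4 h), 4 to 11 (i-BET151 at 4 h), 13 to 27 (i-BET858 at 24 h), 8 to 22 (i-BET151 at 24 h), 0 to 3 (drug difference at 4 h), 0 to 2 (at 24 h), 7 to 16 and 0 to 7 (changes of effect of i-BET858 and i-BET151). Each highest value came from leaving out replicate 3 in all groups. For i-BET151 at 24 h, 6 of the 9 single libraries lowered the count to 8 or 9. No share of all genes is given for fits that leave out 1 library, so these counts do not set the members apart from other genes. The low of 7 for the change of effect of i-BET858 came without DMSO 4 h replicate 1.

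For i-BET151 at 4 h the count of 5 became 10 with DESeq2 or no low-count filter, 8 with at least 10 counts in every library or only the 2 groups, and 9 with all 18 libraries. For i-BET151 at 24 h it became 9 with only the 2 groups. The drug difference at 4 h gave 3 with DESeq2, 2 with no filter or all 18 libraries and 0 with the 2 groups, and at 24 h 1 with DESeq2. The change of effect of i-BET858 gave 7 with no filter. That of i-BET151 gave 4 with DESeq2, 0 with total library size, 2 with no filter and 3 with at least 10 counts, and DMSO times gave 1 with no filter. Asking for a 2-fold change left 3 and 0 at 4 h, 2 and 1 at 24 h, 0 for the drug difference at 4 h, and 3 and 0 for the changes of effect. A share of all genes is not given for the changed filters, the 2 groups alone or all 18 libraries in a comparison within 1 time. None is given for 2-fold drug differences or changes of effect, or for changes of effect with DESeq2, total library size or without replicate 3. Those counts do not set the members apart from other genes. With no low-count filter the calls lost were POLA2 (i-BET858 at 4 h), DBF4, LIG1 and MCM10 (i-BET858 at 24 h), GINS4, MCM6, POLE, RFC3, RFC5 and RPA2 (i-BET151 at 24 h) and GINS4, LIG1, PRIM1 and RFC5 (change of effect of i-BET858). All 18 libraries in 1 fit lost LIG1, MCM10 and POLE with i-BET858 and GINS2, MCM6, POLE, RFC3 and RPA2 with i-BET151, all at 24 h. Only the 2 groups lost MCM3 (i-BET858 at 4 h), LIG1 (i-BET858 at 24 h), MCM6, POLE, RFC3, RFC5 and RPA2 (i-BET151 at 24 h) and RFC1 (drug difference at 4 h). Size factors of DESeq2 lost POLE and RFC5 (i-BET151 at 24 h), and leaving out replicate 3 lost POLA2 (i-BET858 at 4 h) and POLE and RPA2 (i-BET151 at 24 h). DESeq2 gained ORC5, POLD1 and RFC4 (i-BET858 at 4 h) and CDC7, DBF4, MCM2, MCM3 and RFC1 (i-BET151 at 4 h). At 24 h it gained POLD3 (i-BET858) and CDC45 (i-BET151). Total library size gained MCM2, MCM3 and RFC1 (i-BET151 at 4 h) and ORC5, RPA1 and RPA2 (i-BET858 at 24 h), beside those named above for i-BET858 at 4 h. Leaving out replicate 3 gained MCM5, ORC5, POLE2, PRIM2 and RFC4 (i-BET858 at 4 h), DBF4, MCM2, MCM3, MCM5, ORC6 and PCNA (i-BET151 at 4 h), MCM3, MCM4, ORC5, ORC6, PCNA, POLD3, PRIM1 and RFC4 (i-BET858 at 24 h) and CDC45, DBF4, GINS3, MCM3, MCM4, ORC2, ORC6, PCNA, POLD3 and RFC2 (i-BET151 at 24 h). The causes of these gains and losses were not tested. With 3 libraries per group, the half-width of the unadjusted 95% interval of the drug difference at 4 h ran from 0.23 to 0.67 over the members, and differences as large as those of POLD3 (-0.60) and PRIM1 (-0.86) did not pass.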
